A study of Mus musculus with 8 samples.

Results

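The genes described here are those of cholesterol synthesis, sterol sensing, uptake, trafficking, esterification and efflux. They were selected by matching a list of 31 gene symbols to the deposited count table, and all 31 were found among its 24940 genes. The list comprised 18 synthesis enzymes, 4 sterol sensing genes and 9 genes of uptake, trafficking, esterification and efflux. RNA-seq was performed on polyA RNA of whole liver from C57BL/6 males of 2 genotypes, with 4 livers each. FXRKO livers carried the genotype Bcl6(fl/fl), FXR(homo), and BCL6LKOFXRKO livers carried the same alleles together with Alb-Cre. FXR, the bile acid receptor encoded by *Nr1h4*, was therefore lost from the whole body in both groups, and both carried floxed *Bcl6*. Alb-Cre is driven by the albumin promoter and deletes floxed *Bcl6*, the gene of a transcriptional repressor, in hepatocytes. Because Cre was present in BCL6LKOFXRKO livers only, the presence of Cre, the loss of BCL6 and the liver disease that the study describes in this genotype cannot be told apart. No liver with intact FXR was analysed here, and the age of these animals was not given in the sources used here. By the study's methods mice were fed freely or fasted for 4 hours, and which of these applied to the livers described was not given. The livers are numbered 1 to 4 within each genotype by name only.

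Hepatocytes build cholesterol from acetyl-CoA through mevalonate, farnesyl pyrophosphate, squalene and lanosterol. When sterols are scarce in the endoplasmic reticulum, SCAP escorts the transcription factor SREBP-2 (*Srebf2*) to the Golgi for cleavage and the synthesis genes are switched on, whereas INSIG proteins hold SCAP back when sterols are plentiful. Surplus cholesterol is esterified, loaded onto lipoproteins, turned into bile acids or pumped into bile by the ABCG5/ABCG8 transporter, and many efflux genes respond to the oxysterol receptor LXR.

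To show the sequence context of some of these genes, 3 promoter stretches are given first, and no test linked their letters to the changes in expression. They came from the RefSeq promoter windows (250 bases before to 50 after each start, build GRCm38.p6), which matched 23 of the 31 genes by symbol. Capitals mark a sterol regulatory element (TCACNCCAC) or an NF-Y box (CCAAT), searched on both strands, so that ATTGG is an NF-Y box on the other strand. *Hmgcs1* was the 1 gene of the 23 with a match to TCACNCCAC, and variants of these letters were not sought. *Fdps*, *Fdft1*, *Sqle*, *Scarb1*, *Npc1*, *Stard4*, *Soat2* and *Abcg1* had no window and were not searched. *Mvd* had the largest log2 fold change of the synthesis enzymes, and *Abcg5* and *Abcg8* start 110 bases apart on opposite strands. The last 2 stretches were chosen after the values were seen. The *Hmgcs1* stretch lies at chr13:119690101-119690350 on the plus strand and ends at the start, the *Mvd* stretch lies at chr8:122443423-122443672 on the minus strand and ends at the start, and the third lies between the starts of *Abcg5* and *Abcg8* at chr17:84683012-84683120, read on the plus strand.
Hmgcs1: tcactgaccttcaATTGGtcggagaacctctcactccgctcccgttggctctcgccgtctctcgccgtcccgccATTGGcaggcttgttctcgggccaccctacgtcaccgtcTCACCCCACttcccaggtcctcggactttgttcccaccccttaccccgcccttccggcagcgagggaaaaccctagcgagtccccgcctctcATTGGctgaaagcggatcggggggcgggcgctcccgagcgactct
Mvd: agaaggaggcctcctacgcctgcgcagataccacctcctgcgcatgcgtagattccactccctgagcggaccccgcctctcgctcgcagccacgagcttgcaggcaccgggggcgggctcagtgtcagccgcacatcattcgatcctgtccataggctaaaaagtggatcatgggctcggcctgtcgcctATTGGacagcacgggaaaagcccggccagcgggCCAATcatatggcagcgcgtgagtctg
Abcg5 to Abcg8: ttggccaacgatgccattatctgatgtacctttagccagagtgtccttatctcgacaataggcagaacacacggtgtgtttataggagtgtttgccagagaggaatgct

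In *Hmgcs1* the sterol regulatory element lay 137 to 129 bases before the start, with 3 NF-Y boxes in the stretch shown. In *Mvd* 2 NF-Y boxes lay within 60 bases of the start. The bases between *Abcg5* and *Abcg8* held none of these letters. Over all RefSeq genes with a window, 1.44% held the sterol regulatory element and 41.1% the NF-Y box, and over the 9647 tested genes with a window the shares were 1.44% and 42.8%. Of the 23 genes here 20 (87.0%) held an NF-Y box in at least 1 of their windows, including 14 of the 15 synthesis enzymes with a window (93.3%). *Abca1*, *Acat2* and *Scap* had none. The core letters of a BCL6 motif (TTCCNNGAA) were found in 5.6% of all genes and, of the 23, only in *Ebp*, 85 to 77 bases before its start. These matches describe letters in a window and do not show binding.

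**Figure D1:**
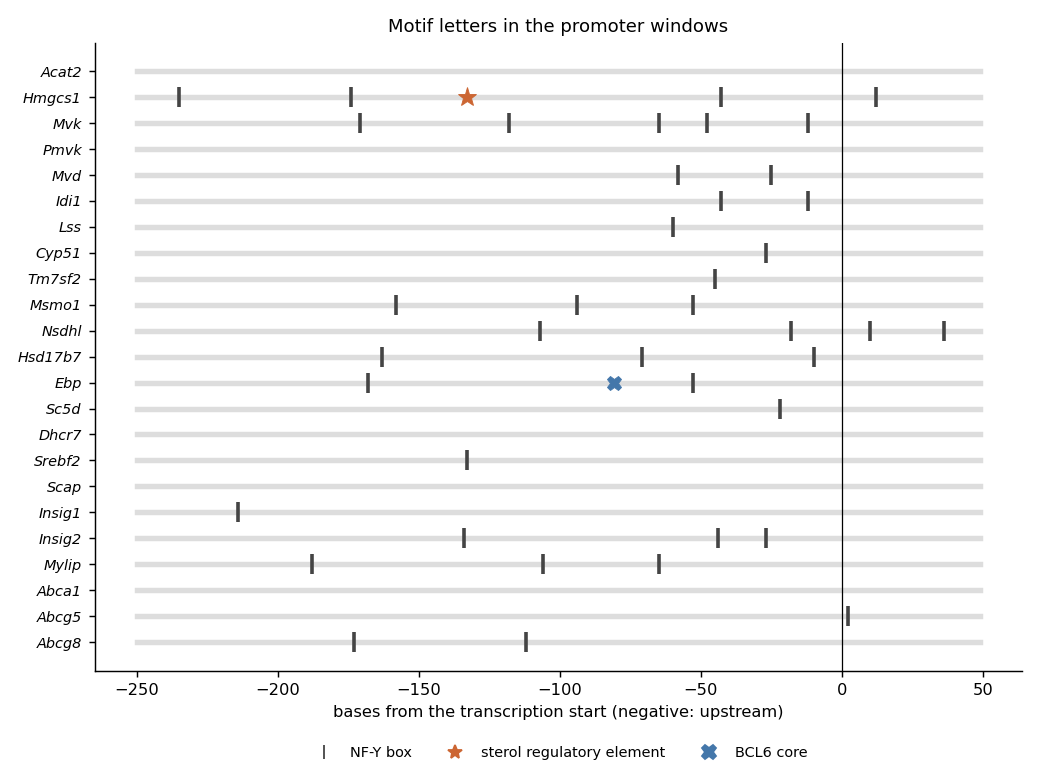
Positions of the motif letters in 1 RefSeq promoter window for each of 23 genes, the window nearest the start in the count table; the x axis is bases from the transcription start. In these windows 18 of the 23 genes held an NF-Y box (40 matches, black bars), *Hmgcs1* held the sterol regulatory element (star) and *Ebp* the BCL6 core (cross).

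Total counts ranged from 7586241 to 11839503 per liver, and levels of single genes are given as CPM, the counts of a gene scaled to a common library size with TMM factors. *Bcl6* was at 56.3, 65.2, 21.2 and 55.6 CPM in FXRKO livers and at 11.9, 4.61, 5.55 and 7.72 CPM in BCL6LKOFXRKO livers. Its log2 fold change, as for every gene below given as BCL6LKOFXRKO minus FXRKO, was -2.72 (SE 0.40, adjusted p = 0.00123, edgeR). *Nr1h4* was still counted in both genotypes (59.96 ± 2.46 and 43.5 ± 3.69 CPM, SD, n = 4 each), so its reads do not check the FXR label. Its log2 fold change was -0.46 (SE 0.10, adjusted p = 0.005, edgeR). The 50 most counted genes took 29.9% to 31.4% of the counts in FXRKO livers and 40.5% to 43.9% in BCL6LKOFXRKO livers. Scaling by total counts alone in place of TMM shifted the median log2 fold change of all genes by -0.16, and directions below are given relative to that median. FXRKO 2 stood apart in the synthesis enzymes, as described below, and results are given with and without it. A filter on low counts left 12340 genes to test, all 31 genes described here among them, and a gene is said to have risen or fallen when its adjusted p was under 0.05 in edgeR's quasi-likelihood test.

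Several cholesterol synthesis enzymes were higher in BCL6LKOFXRKO livers, most of them in steps that lead to squalene. Of the 18 enzymes, 6 rose (*Hmgcs1*, *Pmvk*, *Mvd*, *Fdps*, *Fdft1* and *Cyp51*), none fell and 12 were not called, where 16.2% of all tested genes rose and 13.5% fell. The 6 that rose also had every BCL6LKOFXRKO liver above every FXRKO liver, which held for 16.1% of all tested genes, and no enzyme had every BCL6LKOFXRKO liver below every FXRKO liver, which held for 15.2%. The median log2 fold change of the 18 was 0.33, beside 0.01 over all tested genes. Among the 8 enzymes that lead to squalene 5 rose (median 0.66), and among the 10 that turn squalene into cholesterol 1 rose (median 0.10), and the difference between these parts of the pathway was not tested. Without FXRKO 2 the same number, 6 of 18, rose, with a median of 0.20.

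**Figure D2:**
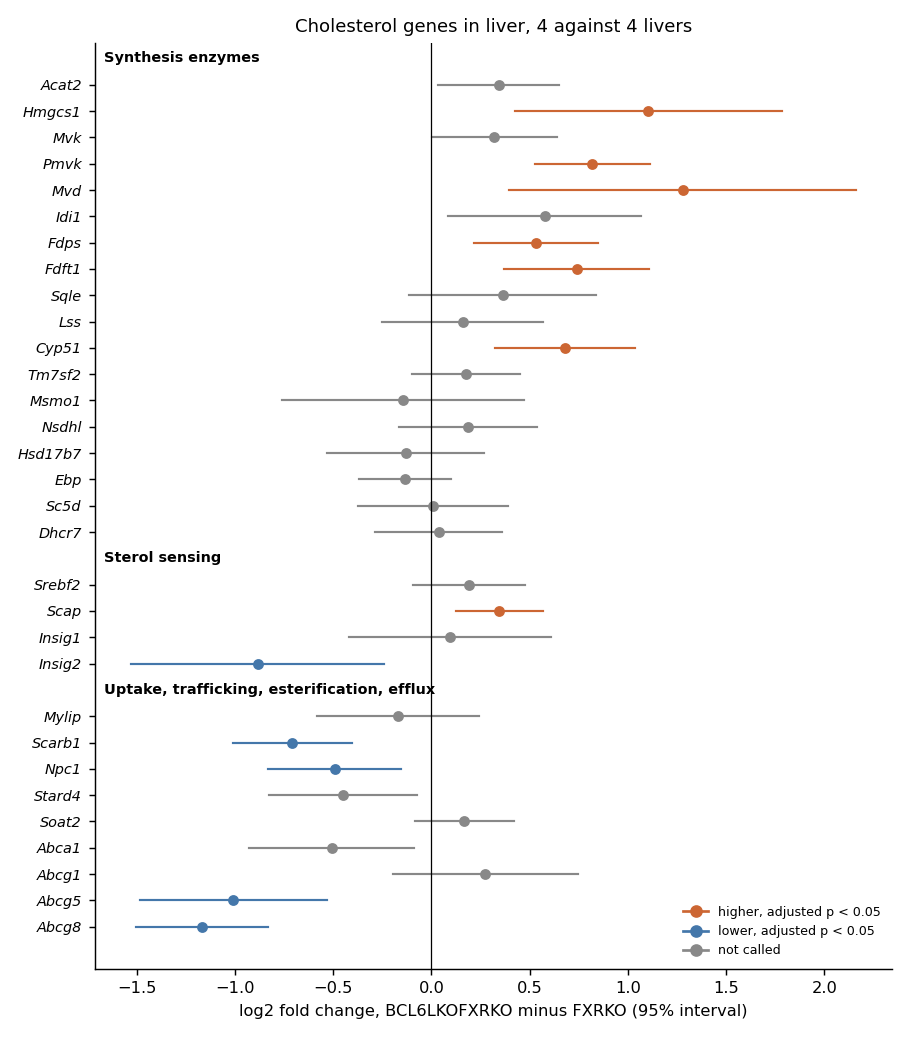
Log2 fold change (BCL6LKOFXRKO minus FXRKO) with its 95% interval for the 31 genes, from edgeR, in the order of the pathway. The 6 enzymes that rose lie at 0.53 to 1.28, and the 4 transport genes that fell at -1.17 to -0.49.

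*Hmgcs1* (chr13:119690351-119708260, mm10, as for the coordinates that follow) encodes the cytosolic HMG-CoA synthase that opens the mevalonate route. It was at 285, 106, 206 and 207 CPM in FXRKO livers and at 604, 371, 465 and 289 CPM in BCL6LKOFXRKO livers. All BCL6LKOFXRKO livers were above all FXRKO livers, although the lowest of the former was close to the highest of the latter. This gave a log2 fold change of 1.10 (SE 0.30, adjusted p = 0.0222, edgeR), which is 2.15-fold. The call was lost without BCL6LKOFXRKO 3 (adjusted p = 0.0562, edgeR), FXRKO 3 (0.051) or FXRKO 4 (0.0504), and also without a filter on low counts (0.0703). *Hmgcs1* shares 557 of its 3482 exon bases with *Gm48342* on the opposite strand.

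*Mvd* (chr8:122433596-122443422) encodes the decarboxylase that makes isopentenyl pyrophosphate. Its level was 33.7, 8.25, 23.4 and 24.5 CPM in FXRKO livers and 75.5, 47.3, 36.8 and 59.7 CPM in BCL6LKOFXRKO livers. The groups did not overlap, and FXRKO 2 was far below the other FXRKO livers. The log2 fold change of 1.28 (SE 0.39, adjusted p = 0.0377, edgeR) was the largest of the 18 and also had the widest interval, 0.40 to 2.16. Without FXRKO 2 it was 1.01 and still called (adjusted p = 0.00926, edgeR). The call was lost without BCL6LKOFXRKO 1 (0.0831), BCL6LKOFXRKO 2 (0.0558), BCL6LKOFXRKO 4 (0.107), FXRKO 3 (0.0764) or FXRKO 4 (0.0723), and also with total-count scaling (0.0555) or without a filter (0.0947).

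*Pmvk* (chr3:89459118-89469009), the phosphomevalonate kinase that acts just before *Mvd*, was the most evenly raised. FXRKO livers had 40.7, 33.6, 40.5 and 31.5 CPM, and BCL6LKOFXRKO livers 65.2, 53.8, 62.1 and 76.9 CPM. There was a clear gap between the groups. Its log2 fold change was 0.82 (SE 0.14, adjusted p = 0.000618, edgeR) and lay between 0.66 and 0.89 over 15 alternatives, called in each.

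*Fdps* (chr3:89093588-89101967) makes farnesyl pyrophosphate, and *Fdft1* (chr14:63145151-63177887) joins 2 farnesyl units into squalene. *Fdps* was at 299, 177, 250 and 226 CPM in FXRKO livers and at 376, 341, 332 and 330 CPM in BCL6LKOFXRKO livers. *Fdft1* was at 135, 73.7, 126 and 132 CPM in FXRKO livers and at 218, 172, 202 and 189 CPM in BCL6LKOFXRKO livers. Neither gene's groups overlapped, and FXRKO 2 was the lowest liver for both. The log2 fold changes were 0.53 for *Fdps* (SE 0.15, adjusted p = 0.0155, edgeR) and 0.74 for *Fdft1* (SE 0.17, adjusted p = 0.00607, edgeR). With total-count scaling the *Fdps* call was lost (0.37, adjusted p = 0.0671, edgeR). *Fdps* has 6 annotated genes with transcripts at least 95% identical over 100 bases or more. Among them is *Gm43738*, which shares 1124 of the 1453 exon bases of *Fdps* on the same strand, so strand cannot tell their reads apart. *Fdft1* shares 774 of its 3698 exon bases with *Ctsb* on the opposite strand, and a transcript of *Gm6781* matched it at 97.4% identity over 1249 bases. Only reads with 1 location were kept and the strand setting of the counting was not given in the sources used here, so the counts of these 2 genes are less certain. The same holds for other genes described here. Of the 31, 11 share exon bases with another annotated gene, and 11 match a transcript of another gene at these limits, with some genes in both groups. For *Cyp51*, *Hmgcs1*, *Lss*, *Npc1* and *Scap* the only match was the overlapping gene itself and no separate copy. The matches of *Soat2* were short (106 to 173 bases).

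*Cyp51* (chr5:4080674-4104697), the lanosterol demethylase, was the 1 enzyme after squalene that rose. Its level was 178, 111, 146 and 167 CPM in FXRKO livers and 268, 210, 291 and 199 CPM in BCL6LKOFXRKO livers, without overlap. Its log2 fold change was 0.68 (SE 0.17, adjusted p = 0.00788, edgeR), and it was called in each of the 15 alternatives.

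The other 12 enzymes were not called, with log2 fold changes from -0.14 to 0.58. *Idi1*, the isopentenyl pyrophosphate isomerase, was at 10.1, 6.0, 10.3 and 9.46 CPM in FXRKO livers and at 18.03, 10.1, 15.5 and 10.1 CPM in BCL6LKOFXRKO livers. Its log2 fold change was 0.58 (95% interval 0.09 to 1.07, adjusted p = 0.0727, edgeR), and it was called without BCL6LKOFXRKO 2 (adjusted p = 0.0469, edgeR) or BCL6LKOFXRKO 4 (0.0397) and with limma voom (0.0232). A transcript of *Gm13502* matched *Idi1* at 100% identity over 684 bases, so this count is uncertain too. *Acat2*, the acetoacetyl-CoA thiolase at the head of the pathway, stood at 0.34 on the same scale (adjusted p = 0.0866, edgeR) and was called without BCL6LKOFXRKO 2 (0.0422) and with limma voom (0.0485). A near copy of *Acat2*, *Acat3*, matched it at 97.7% identity over 1477 bases, which leaves its count uncertain. The mevalonate kinase *Mvk* stood at 0.32 (95% interval 0.00 to 0.64). *Sqle*, the squalene epoxidase that is a slow step of the late pathway, stood at 0.36 (95% interval -0.11 to 0.84), with FXRKO 2 at 46.9 CPM and the other FXRKO livers at 88.9 to 94.7 CPM.

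Late steps had values close to 0 on the log2 scale. The lanosterol synthase *Lss* was at 0.16, the sterol reductase *Tm7sf2* at 0.18 and the dehydrogenase *Nsdhl* at 0.19. *Msmo1*, which oxidises the C4 methyl groups, was at -0.14 (95% interval -0.76 to 0.47), *Hsd17b7*, the ketosteroid reductase that works with it, at -0.13, and the isomerase *Ebp* at -0.13. With total-count scaling *Ebp* was called lower (-0.30, adjusted p = 0.0459, edgeR). The desaturase *Sc5d* (317 ± 39.9 and 319 ± 80.9 CPM, SD, n = 4 each) and the last reductase *Dhcr7* (104 ± 15.5 and 107 ± 19.2 CPM) had 95% intervals of -0.37 to 0.39 and -0.29 to 0.36. These intervals do not show that the levels were the same. The signs of *Dhcr7*, *Hsd17b7*, *Msmo1* and *Sc5d* flipped in at least 1 alternative.

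Levels of different enzymes were compared as RPKM, which is CPM divided by the transcript length in kilobases from the deposited table. In FXRKO livers the most abundant were *Fdps* (164 ± 34.8 RPKM, SD, n = 4), *Ebp* (144 ± 8.58), *Sc5d* (141 ± 17.8) and *Msmo1* (110 ± 40.5), and these 4 do not separate beyond their spread. *Tm7sf2* came next at 83.8 ± 12.2 RPKM, within the spread of *Msmo1*. *Idi1* was the least abundant at 3.14 ± 0.704 RPKM. The levels of *Fdps* and *Idi1* are uncertain because of the near copies given above. In BCL6LKOFXRKO livers *Fdps* reached 238 ± 14.7 RPKM and *Hmgcs1* 121 ± 37.9 RPKM, from 56.4 ± 20.5 RPKM in FXRKO livers.

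Some livers were low or high for many of the enzymes, and a correlation between enzymes was not computed. FXRKO 2 had the lowest level of its group for 14 of the 18 enzymes, with a mean deviation of -0.66 log2 CPM from the mean of the 8 livers, whereas the other FXRKO livers lay between -0.08 and -0.0046. BCL6LKOFXRKO 1 had the highest level of its group for 11 enzymes (mean deviation 0.42), and BCL6LKOFXRKO 4 the lowest for 10 (0.03). BCL6LKOFXRKO 4 also had the highest level of its group for 3 enzymes, *Mvk*, *Pmvk* and *Ebp*. Leaving out FXRKO 2 lowered the log2 fold changes of *Hmgcs1* to 0.89, *Fdft1* to 0.57, *Fdps* to 0.41 and *Cyp51* to 0.56, each still called. *Pmvk*, at 0.78, and *Mvd*, at 1.01, were also still called, so that the same 6 enzymes rose with and without this liver.

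**Figure D3:**
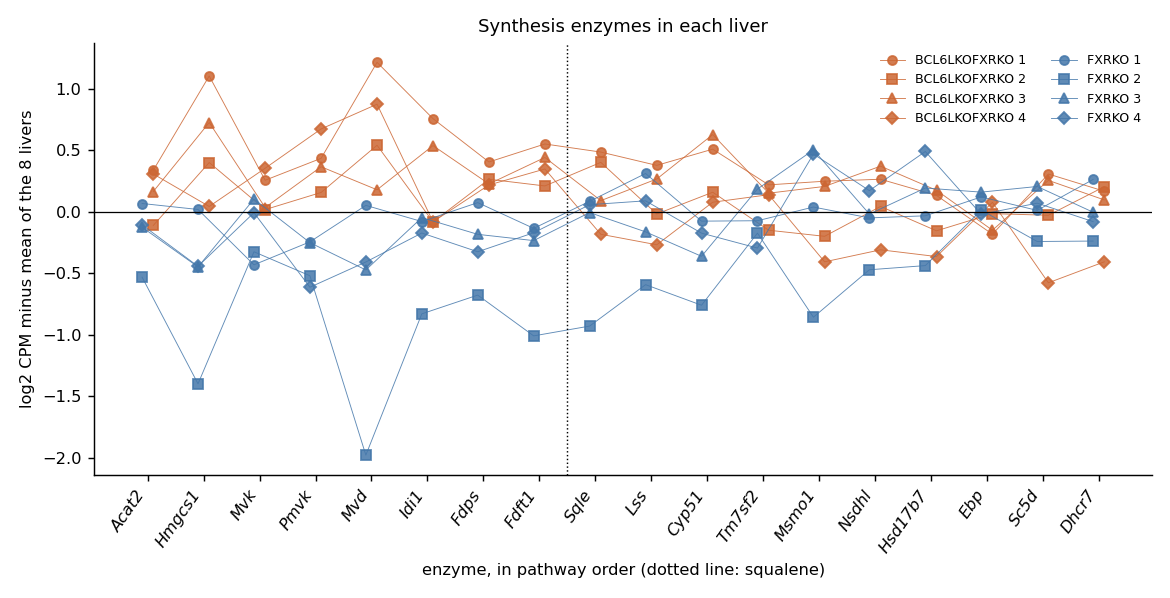
Log2 CPM of each synthesis enzyme minus its mean over the 8 livers (y axis), in pathway order (x axis), with 1 line per liver and the dotted line at squalene. FXRKO 2 (blue squares) is lowest of its group for 14 of 18 enzymes, and the lines of the 2 genotypes overlap for most enzymes after squalene.

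Of the 4 sterol sensing genes, *Scap* rose, *Insig2* fell and *Srebf2* and *Insig1* were not called (median log2 fold change 0.14). Over all tested genes 16.2% rose and 13.5% fell, so 1 call in each direction among 4 genes does not set this list apart. *Scap* (chr9:110333288-110384949), the escort of SREBP-2, was at 153, 167, 161 and 139 CPM in FXRKO livers and at 206, 191, 196 and 194 CPM in BCL6LKOFXRKO livers. The groups did not overlap, but the change was small, with a log2 fold change of 0.34 (SE 0.10, adjusted p = 0.0232, edgeR). With total-count scaling it was 0.19 and not called (adjusted p = 0.204, edgeR). The call was also lost without BCL6LKOFXRKO 1 (0.0678), FXRKO 1 (0.0575) or FXRKO 4 (0.0804), and without a filter (0.0544). *Scap* shares 785 of its 4227 exon bases with *5830462I19Rik* on the opposite strand.

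*Insig2* (chr1:121304353-121332589), one of the paired retention proteins, was at 219, 238, 111 and 123 CPM in FXRKO livers and at 124, 103, 82.4 and 64.2 CPM in BCL6LKOFXRKO livers. FXRKO 1 and 2 lay well above every other liver, while FXRKO 3 and 4 overlapped with BCL6LKOFXRKO 1. Its log2 fold change was -0.88 (SE 0.29, adjusted p = 0.0442, edgeR), and it stayed below 0 in all 15 alternatives. The call was lost without BCL6LKOFXRKO 2 (adjusted p = 0.0731, edgeR), BCL6LKOFXRKO 3 (0.109), BCL6LKOFXRKO 4 (0.143), FXRKO 1 (0.0903) or FXRKO 2 (0.095), and also with limma voom (0.114) or without a filter (0.0929). *Insig1*, the paralogue that is itself an SREBP-2 target, was at 192, 135, 266 and 241 CPM in FXRKO livers and at 322, 187, 205 and 177 CPM in BCL6LKOFXRKO livers. The groups overlapped (log2 fold change 0.09, 95% interval -0.42 to 0.61), and its sign flipped with total-count scaling (-0.06). *Srebf2* stood at 0.19 (95% interval -0.09 to 0.48).

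The log2 ratio of *Insig2* to *Insig1* per kilobase was 0.30, 0.92, -1.16 and -0.87 in FXRKO livers and -1.27, -0.75, -1.21 and -1.35 in BCL6LKOFXRKO livers. FXRKO 1 and 2 had more *Insig2* than *Insig1*, and the other 6 livers had less. The difference between genotypes was -0.94 (p = 0.143 in an exact two-sided permutation test, adjusted p = 0.2 over 3 ratios), and without FXRKO 2 it was -0.57. The smallest p this design allows is 0.0286.

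Several genes of uptake, trafficking and efflux were lower in BCL6LKOFXRKO livers. Of 9 such genes, *Scarb1*, *Npc1*, *Abcg5* and *Abcg8* fell and none rose, where 13.5% of all tested genes fell and 16.2% rose, and the median log2 fold change was -0.49. The same number, 4 of 9, fell without FXRKO 2, with *Stard4* called in place of *Npc1*. Every BCL6LKOFXRKO liver was below every FXRKO liver for *Scarb1*, *Abca1*, *Abcg5* and *Abcg8*, which held for 15.2% of all tested genes.

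*Abcg5* (chr17:84658174-84683011) and *Abcg8* (chr17:84683121-84700333) encode the subunits of 1 transporter that moves cholesterol and plant sterols into bile. *Abcg8* was at 164, 140, 192 and 226 CPM in FXRKO livers and at 70.7, 72.1, 96.0 and 82.8 CPM in BCL6LKOFXRKO livers. *Abcg5* was at 79.0, 62.6, 86.6 and 140 CPM in FXRKO livers and at 43.5, 43.6, 55.3 and 41.0 CPM in BCL6LKOFXRKO livers. For both genes every BCL6LKOFXRKO liver was below every FXRKO liver, and FXRKO 4 was the highest. The log2 fold change was -1.17 for *Abcg8* (SE 0.16, adjusted p = 0.000119, edgeR) and -1.01 for *Abcg5* (SE 0.22, adjusted p = 0.00496, edgeR). Both were called in each of the 15 alternatives, with adjusted p up to 0.000941 for *Abcg8* and 0.0415 for *Abcg5* (edgeR for both). Per length they were at 49.4 ± 10.1 (*Abcg8*) and 38.5 ± 14.1 (*Abcg5*) RPKM in FXRKO livers and at 22.02 ± 3.21 and 19.1 ± 2.69 RPKM in BCL6LKOFXRKO livers (SD, n = 4). Their log2 ratio within a liver ranged from -0.56 to -0.08 in FXRKO livers and from -0.41 to -0.09 in BCL6LKOFXRKO livers, a difference of 0.20 (exact permutation p = 0.2, adjusted p = 0.2). The bases between their starts are those shown above.

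*Scarb1* (chr5:125277087-125341094) encodes SR-BI, the receptor that takes cholesteryl esters from high-density lipoprotein. It was at 209, 185, 173 and 164 CPM in FXRKO livers and at 109, 143, 95.6 and 100.2 CPM in BCL6LKOFXRKO livers. No liver overlapped between the groups. The log2 fold change was -0.71 (SE 0.14, adjusted p = 0.00215, edgeR), between -0.87 and -0.64 over the 15 alternatives and called in each.

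*Npc1* encodes the protein that carries cholesterol out of late endosomes and lysosomes. Its level was 133, 192, 181 and 193 CPM in FXRKO livers and 112, 99.8, 154 and 131 CPM in BCL6LKOFXRKO livers. The groups overlapped, since FXRKO 1 lay below BCL6LKOFXRKO 3. Its log2 fold change was -0.49 (SE 0.16, adjusted p = 0.0312, edgeR). The call was lost without BCL6LKOFXRKO 1 (0.0864), BCL6LKOFXRKO 2 (0.0716), BCL6LKOFXRKO 4 (0.0501), FXRKO 2 (0.0846), FXRKO 3 (0.0708) or FXRKO 4 (0.0826).

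*Abca1*, which loads cholesterol onto apolipoprotein A-I, was at 76.4, 94.1, 77.7 and 78.7 CPM in FXRKO livers and at 60.03, 71.4, 65.6 and 33.3 CPM in BCL6LKOFXRKO livers. The groups did not overlap, and BCL6LKOFXRKO 4 was far below its group, yet the log2 fold change of -0.51 was not called (95% interval -0.93 to -0.09, adjusted p = 0.0667, edgeR). It was called without BCL6LKOFXRKO 2 (-0.63, adjusted p = 0.0356, edgeR), with total-count scaling (-0.67, 0.0197) and with limma voom (-0.43, 0.0281). Without BCL6LKOFXRKO 4 it was called too (0.0409), at a smaller size of -0.32. *Abcg1*, another LXR-responsive exporter, was at 7.22 ± 1.33 and 8.71 ± 2.56 CPM (SD, n = 4 each; log2 fold change 0.28, 95% interval -0.20 to 0.75). The log2 ratio of *Abca1* to *Abcg1* was lower in BCL6LKOFXRKO livers by 0.81 on average (difference -0.81, exact permutation p = 0.0857, adjusted p = 0.2). Without BCL6LKOFXRKO 4 the difference was -0.38.

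*Stard4*, a carrier that moves cholesterol between membranes, was at 88.8, 76.7, 128 and 116 CPM in FXRKO livers and at 65.5, 70.02, 96.9 and 67.7 CPM in BCL6LKOFXRKO livers. The groups overlapped through BCL6LKOFXRKO 3 (log2 fold change -0.45, adjusted p = 0.0703, edgeR), and the gene was called without that liver (adjusted p = 0.0212, edgeR) or without FXRKO 2 (0.0316), and with total-count scaling (0.0217). *Soat2*, which esterifies cholesterol in hepatocytes, was at 33.7 ± 1.23 and 37.9 ± 4.76 CPM (SD, n = 4 each; log2 fold change 0.17, 95% interval -0.08 to 0.42). *Mylip*, an LXR target that encodes a ubiquitin ligase for lipoprotein receptors, was at 9.12 ± 1.41 and 8.09 ± 1.80 CPM (log2 fold change -0.17, 95% interval -0.58 to 0.24).

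**Figure D4:**
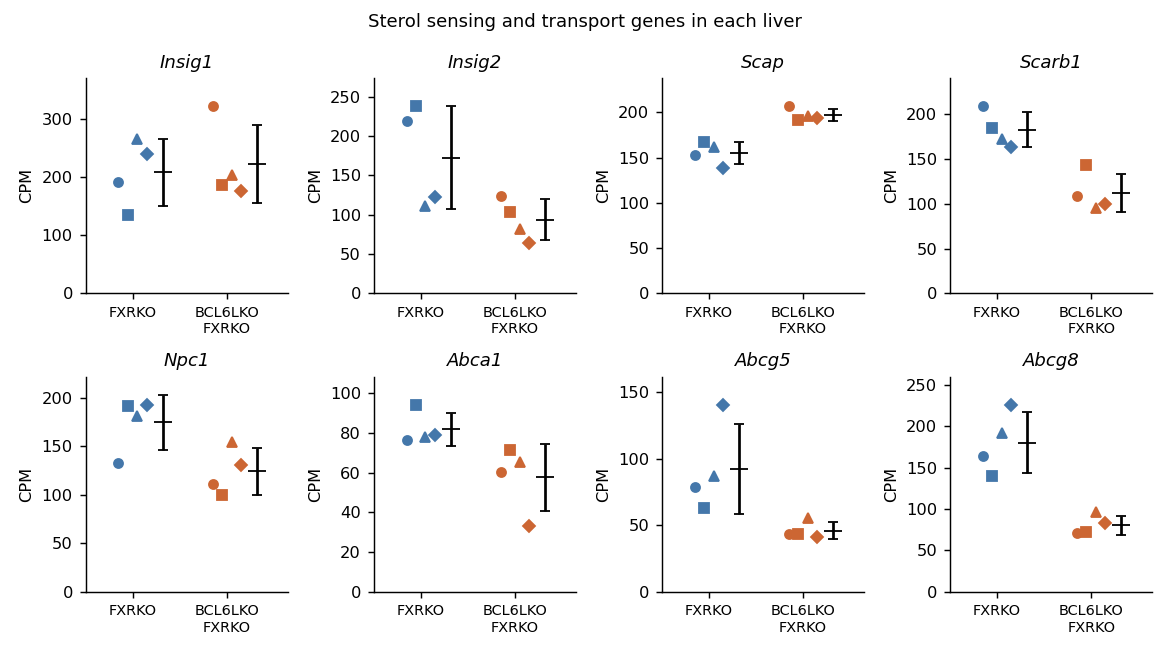
CPM of 8 sterol sensing and transport genes in each liver (points, with 1 symbol per liver number) and the mean ± SD of 4 livers (bars). The groups do not overlap for *Scap*, *Scarb1*, *Abca1*, *Abcg5* and *Abcg8*, while *Insig1*, *Insig2* and *Npc1* overlap.

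A further list of 38 genes of the pathway was examined in the same fit, of which 37 were in the table and tested. Here 9 rose, 7 fell and 21 were not called, with a median log2 fold change of 0.02, beside 16.2% of all tested genes that rose and 13.5% that fell. *Tmem97*, a sterol-regulated membrane protein that binds NPC1, was at 107, 83.3, 117 and 115 CPM in FXRKO livers and at 265, 246, 242 and 291 CPM in BCL6LKOFXRKO livers (log2 fold change 1.31, SE 0.13, adjusted p = 9.64e-06, edgeR). *Vldlr*, a lipoprotein receptor that is low in normal liver, was at 2.39, 1.37, 1.93 and 2.55 CPM against 11.6, 7.89, 16.2 and 10.99 CPM (log2 fold change 2.48, SE 0.26, adjusted p = 1.5e-05, edgeR). *Npc2*, the lysosomal partner of NPC1, rose by 0.78 (SE 0.14, adjusted p = 0.000912, edgeR), whereas *Npc1* fell.

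Of the genes of this list that fell, *Rxra* and *Aacs* are described. *Rxra*, the partner of LXR and FXR on DNA, was at 599, 609, 575 and 636 CPM in FXRKO livers and at 332, 485, 385 and 399 CPM in BCL6LKOFXRKO livers (log2 fold change -0.60, SE 0.13, adjusted p = 0.00365, edgeR). *Aacs*, which feeds ketone bodies into sterol and fatty acid synthesis, was at 106, 46.1, 205 and 95.1 CPM against 32.4, 40.5, 29.7 and 21.2 CPM (log2 fold change -1.87, SE 0.43, adjusted p = 0.0145, edgeR), and its call was lost without BCL6LKOFXRKO 4 (adjusted p = 0.0597, edgeR) and with limma voom (0.0595). The groups did not overlap for any of these 5 genes, and leaving out FXRKO 2 kept each call. Over all tested genes, 16.1% had every BCL6LKOFXRKO liver above every FXRKO liver and 15.2% below. Since the 5 were picked by small adjusted p in the same livers, neither point is separate support.

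**Figure D5:**
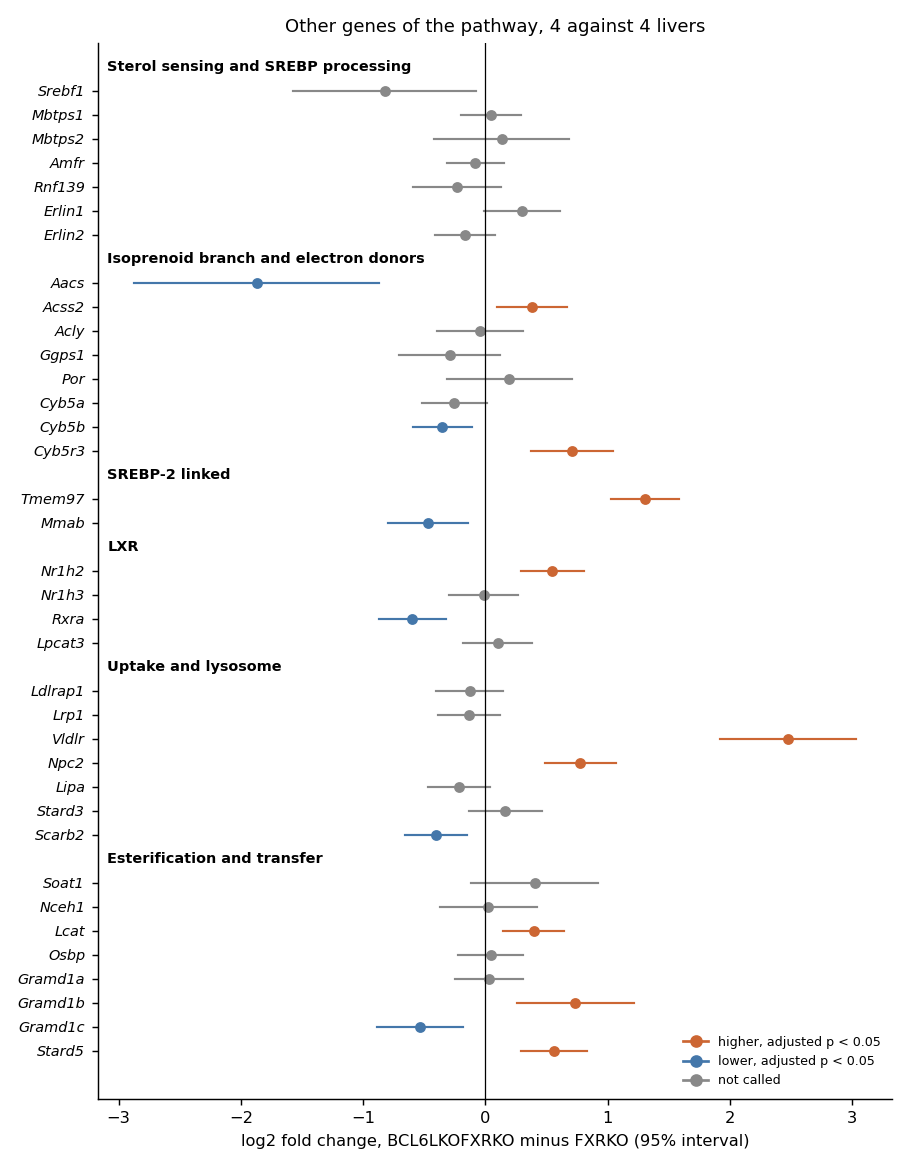
Log2 fold change with its 95% interval for 36 of the further genes of the pathway, by class, from the same edgeR fit. *Vldlr* (2.48) and *Tmem97* (1.31) lie highest and *Aacs* (-1.87) lowest.

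Among the 4 genes of the LXR class, *Nr1h2* (LXR beta) rose (0.55, adjusted p = 0.00376, edgeR), *Rxra* fell, and *Nr1h3* (LXR alpha, -0.01) and *Lpcat3* (0.10) were not called. With 16.2% of all tested genes rising and 13.5% falling, 1 call in each direction among 4 genes does not set this class apart. *Nr1h2* is outside the rule for named genes and was chosen with *Nr1h3* and *Lpcat3* after its values were seen.

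Some markers of other liver cells were higher in BCL6LKOFXRKO livers, beside 16.2% of all tested genes that rose. Of 12 macrophage and monocyte markers 4 rose, with a summed level of 395 to 560 CPM in FXRKO livers and 552 to 884 CPM in BCL6LKOFXRKO livers, which overlapped. Of 7 stellate cell and fibroblast markers 4 rose (169 to 222 against 316 to 386 CPM), of 4 tested cholangiocyte markers 2 rose (41.5 to 65.9 against 74.3 to 134 CPM over 6 in the table), and of 5 endothelial markers 1 rose (126 to 177 against 165 to 224 CPM, which overlapped). The other 8 macrophage and monocyte, 3 stellate cell and fibroblast, 2 cholangiocyte and 4 endothelial markers tested were not called. The 3 T cell markers in the table were near 0, at a summed 0.752 to 1.14 against 2.05 to 3.36 CPM, and were not tested, like the cholangiocyte markers *Krt7* and *Cftr*. None of these lists had a marker that fell, but *Sox9* (cholangiocyte, -0.81, adjusted p = 0.0773, edgeR), *Timd4* (macrophage, -0.32) and *Cdh5* (endothelial, -0.06) were below 0. The cholangiocyte markers that rose were *Spp1* and *Krt19*. *Spp1* (mean 43.4 CPM in FXRKO and 87.2 CPM in BCL6LKOFXRKO livers) made up most of that sum, and *Krt19* was low (1.03 and 2.54 CPM). Of 7 hepatocyte markers 2 rose (*Alb* 1.60, *Asgr1* 1.07) and 2 fell (*Ttr* -0.76, *Pck1* -1.61), and the other 3 were not called. All 7 were counted in both genotypes. The part of these cells in the cholesterol genes was not tested, and in bulk liver fewer cells of a type and less RNA per cell cannot be told apart.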

How the data were processed

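The authors prepared polyA libraries with a stranded kit, sequenced 100 base single-end reads and used STAR 2.5.2 to align them to mm10, where a read had to map to 1 place with no more than 4 mismatches. They deposited raw counts per gene made with HOMER 4.10. The counts are not normalized, and the strand setting is not given in the sources used here. Groups came from the genotype labels. The members and gene lists were chosen with earlier results of these data known, and they do not cover every gene of the pathway.

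Counts were tested with edgeR 4.0.16 (R 4.3.3; filterByExpr, TMM, robust quasi-likelihood fit) with Benjamini-Hochberg adjustment over 12340 genes. The study used DESeq2, which was an alternative here (1.42.0), as were limma voom (3.58.1), other scalings and filters, and leaving out each liver. The script was tested on simulated data. CPM and RPKM used TMM-scaled libraries and the table's lengths. Ratios were compared by exact two-sided permutation over 70 orderings. Text names all 31 members, and of the further pathway genes those that rose or fell with the 3 smallest adjusted p, except 1 that is not reported here. Near copies were sought with BLAST 2.17.0. No liver pair agreed within sampling noise (chi-square per degree of freedom 10.0 to 45.8). Each library title carries its own number, and the 4 livers of a genotype were taken as separate animals.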

Additional observations from a re-analysis of the deposited data

Results flagged for a closer look

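Among 70 groups of 4 livers examined, 5 had a liver whose gap to the nearest other liver took up most of the range of its group, and chance alone marks about 1 group in 20. FXRKO 2 was low for *Fdft1* (gap 0.853 of the range), low for *Sqle* (0.878) and low for the mean deviation of the 18 synthesis enzymes (0.883), and it was high for *Abca1* (0.868). BCL6LKOFXRKO 3 was high for *Stard4* (0.855). The synthesis values overlap, since *Fdft1* and *Sqle* are among the 18 enzymes. Without FXRKO 2 the log2 fold change was 0.57 for *Fdft1* and 0.17 for *Sqle*, and for *Abca1* it was -0.44. Without BCL6LKOFXRKO 3 that of *Stard4* was -0.59.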

How the results depend on the processing

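Over 15 alternatives for each of the 31 genes (465 values), 406 kept their direction and their side of the threshold, 30 lost a call, 13 gained one and 16 changed sign, the last all in genes that were not called. *Pmvk*, *Fdft1*, *Cyp51*, *Scarb1*, *Abcg5* and *Abcg8* were called in each alternative. Between 4 and 8 of the 18 synthesis enzymes rose over all alternatives. The number was 4 to 7 when 1 liver was left out, 4 without a filter or with total counts and 8 with limma voom. Between 3 and 6 of the 9 transport genes fell. With total counts 1 enzyme, *Ebp*, was called lower, and no sensing gene was called higher. The number of sensing genes called higher was also 0 without a filter and above an absolute log2 fold change of 0.5, and 0 to 1 when 1 liver was left out. The number called lower was 0 with limma voom and without a filter, and 0 to 1 when 1 liver was left out. Of the further pathway genes 4 fell above an absolute log2 fold change of 0.5, and 3 to 7 when 1 liver was left out. The cause of these changes was not tested. Signs changed with total counts for *Dhcr7* (-0.12), *Insig1* (-0.0584) and *Sc5d* (-0.14), with limma voom for *Hsd17b7* (0.0217) and *Msmo1* (0.12), and for *Sc5d* also with DESeq2 (-0.0081) and without a filter (-0.0157). Leaving out 1 liver gave -0.0372 to 0.16 for *Dhcr7*, -0.27 to 0.0295 for *Hsd17b7*, -0.14 to 0.23 for *Insig1* and -0.10 to 0.17 for *Sc5d*. The number of calls over all genes moved with the setting too. Total counts gave 1404 calls higher and 2949 lower, against 1994 and 1665. Limma voom gave 2160 and 1914, and no filter gave 1787 and 1687. Leaving out 1 liver gave 1532 to 1850 higher and 1262 to 1656 lower. No paired analysis was possible because the labels give no replicate numbers that the genotypes share. With 4 livers in a group the exact test cannot go below 0.0286, and weak changes of low genes such as *Idi1*, *Mylip* and *Abcg1* (under 20 CPM) rest on few counts.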
